A study of Mus musculus with 9 samples.

Results

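The nuclear-encoded subunits of the mitochondrial respiratory chain and ATP synthase were followed across sorted thymocytes of control and Brd1 conditional knockout mice. The set was chosen by gene symbol alone: Ndufa, Ndufb, Ndufc, Ndufs and Ndufv genes for complex I, Sdha to Sdhd for complex II, Uqcr genes for complex III, Cox4 to Cox8 genes for complex IV and Atp5 genes for complex V. It held 83 of the 20258 named genes on the array, namely 36 of complex I, 4 of complex II, 8 of complex III, 18 of complex IV and 17 of complex V. Well above background on all 9 arrays were 79 members, and counts over members below refer to these 79 unless another number is given. Cox6a2 was well above background on 8 arrays. Cox7b2, Cox8b and Cox8c, isoforms known from testis or muscle, were well above background on none and were not tested, which left 80 members in the fits.

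The study asked how loss of Brd1, a bromodomain protein of histone acetyltransferase complexes, alters developing T cells. Each sorted group of thymocytes, from C57BL/6 animals and gated on CD4, CD8 and TCRβ, was measured on 1 one-colour array. All mice carried Tie2-Cre, a Cre transgene active in blood-forming and endothelial cells. Control mice were Brd1+/+ and conditional knockout (CKO) mice were Brd1flox/flox. At 8 weeks of age, both genotypes gave CD4+CD8+DP (double positive) cells and the single positive CD4SP and CD8SP cells, and the CKO alone gave TCRβ-negative CD4SP cells. At 14 weeks, CD8SP cells were taken from both genotypes on a background that also carried OT-I (spelled OT-l in the labels), a transgene for a T cell receptor that recognises its antigen on MHC class I. No label says whether the arrays came from separate mice or from pools. Age and receptor cannot be told apart between the OT-I and the other CD8SP arrays.

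The respiratory chain passes electrons from NADH through complex I, or from succinate through complex II, to complexes III and IV, and the proton gradient that complexes I, III and IV build drives ATP synthesis by complex V. Most subunits are encoded in the nucleus, made in the cytosol and imported, and are assembled with a few subunits made inside the mitochondrion. In thymocytes, blast cells that divide are known to need more respiratory capacity than small resting cells.

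Levels are log2 signals minus the 75th percentile over probes of the same array, and differences are log2 values, array labelled CKO minus control array, unless stated otherwise. Probes differ in brightness for the same amount of RNA, so levels of different genes are never compared as amounts of RNA. Per array, 39.0% to 45.9% of probes were well above background. The single Brd1 probe did not bear out the labels: it was higher on the CKO array of every pair, by 0.46 in DP, 0.10 in CD4SP, 0.64 in CD8SP and 0.61 in OT-I CD8SP cells. Its place relative to the floxed part of the gene is not given in the sources used here, so it does not check the labels, and CKO below means the array labelled CKO. The 11 thymocyte markers with a probe, such as Cd3d and Lck, were well above background on all 9 arrays. Cd4 ranged from 6.19 to 6.54 where DP or CD4SP cells were measured and from 3.14 to 3.50 in CD8SP cells, and Cd8b1 from 5.37 to 6.65 in DP and CD8SP cells and from 0.54 to 3.24 in CD4SP cells. Of the marker lists for other cells, 2 to 4 of 6 B cell genes, 6 to 10 of 10 myeloid genes, 1 to 5 of 7 granulocyte genes, 3 to 4 of 7 erythroid genes, 2 to 5 of 10 stromal genes and 0 to 5 of 6 NK cell genes were well above background per array. In sorted bulk RNA, fewer cells of a type and less RNA per cell cannot be told apart. The CD8SP CKO array and both OT-I arrays lay on slide 2 and the other 6 arrays on slide 1, so the CD8SP pair crosses slides whereas the other pairs do not.

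Among the control arrays, nearly every subunit was highest in CD8SP cells. The median level of the 79 members was 6.55 in DP, 6.64 in CD4SP, 7.63 in CD8SP and 7.64 in OT-I CD8SP controls. On the arrays labelled CKO it was 6.77 in DP, 6.37 in CD4SP, 6.88 in TCRβ-negative CD4SP, 7.01 in CD8SP and 6.58 in OT-I CD8SP cells. Both CD8SP-type control arrays stood above all 7 other arrays for 73 of 79 members, against 24.4% of the 15071 genes well above background on all 9 arrays. The remaining 6 members did not show this order. The 15071 genes include accessions without a symbol, and their probes were dimmer. Their median level was 1.80 on the DP control array, against 6.55 for the members. Whether differences between arrays depend on probe brightness was not tested. The medians of the CKO arrays spanned a narrower range than those of the controls, and the CD8SP-type CKO arrays lay below both CD8SP-type control arrays.

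**Figure D1:**
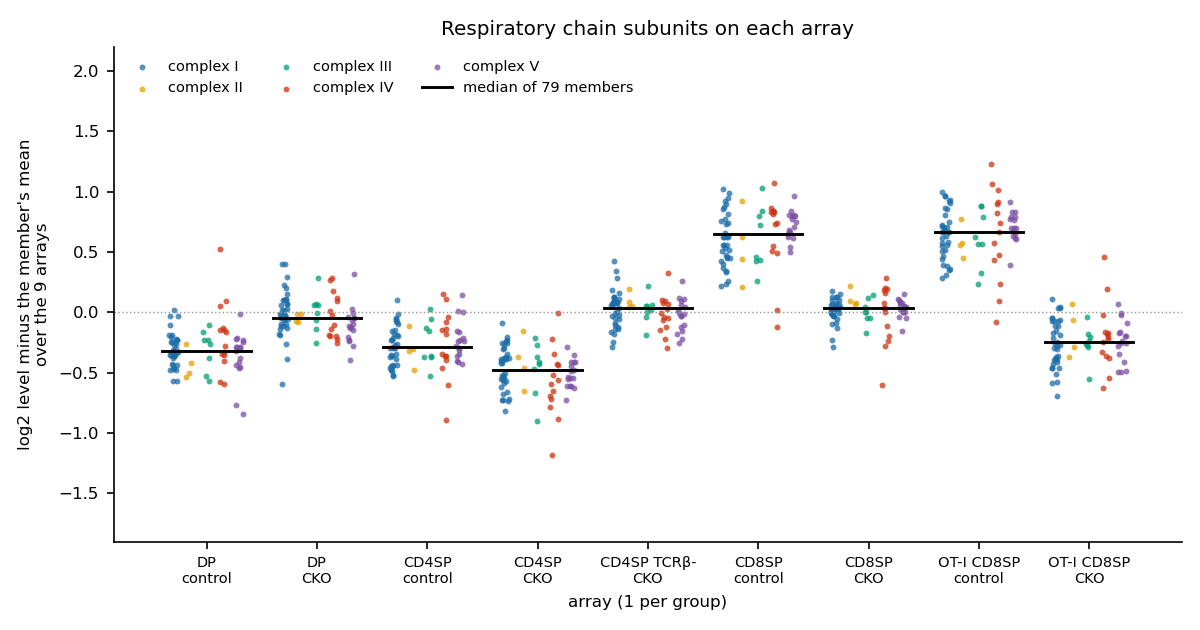
Each point is 1 of the 79 members on 1 array, as its log2 level minus its own mean over the 9 arrays, coloured by complex, and black bars are medians over the members. The CD8SP control and OT-I CD8SP control arrays stand above the others for 73 of 79 members, and points of the 5 complexes overlap on every array.

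Between control arrays the median member was 0.98 higher in CD8SP than in DP cells (1.98-fold) and 0.95 higher in CD8SP than in CD4SP cells. Both comparisons share the CD8SP control array. In the first 78 of 79 members were higher (63.8% of all genes) and 37 by more than 2-fold (18.3%), and in the second 77 were higher (57.1%) and 28 by more than 2-fold (13.4%). Medians by complex ran from 0.93 in complex I to 1.04 in complex V against DP cells, and from 0.75 in complex II to 1.00 in complex IV against CD4SP cells. Under quantile normalization, which forces all arrays to 1 distribution, the medians were smaller, 0.27 against DP and 0.37 against CD4SP cells. CD4SP and DP controls differed by a median of 0.06, with 48 members higher (55.4% of all genes) and 31 lower, and this value turned to -0.16 under normexp background correction and to -0.17 under quantile normalization. OT-I and ordinary CD8SP controls differed by 0.04, and by -0.07 when arrays were scaled on the probes detected on all of them. These control arrays lay on different slides, so slide cannot be told apart from age and receptor. In a limma fit of all 9 arrays on population plus genotype, 0 of 80 members passed an adjusted p of 0.05 in CD8SP against DP cells (3.47% of genes passed), where 5 had an unadjusted p below 0.05 (20.9%). In CD8SP against CD4SP cells 0 of 80 passed as well (0.39%), and 15 had an unadjusted p below 0.05 (13.3%). The fitted median difference was 0.52 against DP and 0.71 against CD4SP cells, beside 0.03 and 0.04 over all genes tested.

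The subunits differed between genotypes in a graded way across the populations. In DP cells, 76 of 79 members were higher on the CKO array, by a median of 0.25, which is close to the shift of all genes in that pair (69.1% higher, median 0.20). In CD4SP cells 72 members were lower, by a median of -0.24 (52.7% of all genes lower, median -0.03). In CD8SP cells 76 were lower, by a median of -0.63, or 1.55-fold (60.7%, median -0.15). In OT-I CD8SP cells 77 were lower, by a median of -0.89, or 1.85-fold (57.0%, median -0.11). More than 2-fold lower were 4 members in the CD8SP pair, against 7.05% of all genes, and 29 in the OT-I pair, against 13.1%, whereas 0 were in the DP and CD4SP pairs, against 2.61% and 2.33%. With 1 array per group, no pair has a replicate error to set these values against.

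Markers of other cells also differed within the pairs. As log2 summed signals over each list, erythroid markers, mainly the globin genes Hba-a1, Hba-a2 and Hbb-b2, differed by 1.71 in DP, -1.28 in CD4SP, 0.56 in CD8SP and 0.82 in OT-I CD8SP cells, array labelled CKO minus control. Granulocyte markers differed by -1.67, -0.996, -0.13 and -0.11, myeloid markers by -0.40, -0.44, 0.68 and 0.45, and stromal and epithelial markers by 1.35, 0.34, 0.49 and 0.41. B cell markers differed by 0.01, -0.25, 0.26 and -0.52, and Pax5 was well above background on no array. NK cell markers differed by 0.10, -5.41, -0.04 and 0.43: on the CD4SP control array 5 of 6 were well above background, and on the CD4SP CKO array 0, while Ncr1 was on no array. On both DP arrays and the TCRβ-negative array 0 NK cell markers were well above background. The DP difference thus compares background signals, and the CD4SP difference was taken against background. Over the 9 arrays the log2 summed signals spanned 4.50 to 6.38 for erythroid, 2.19 to 3.93 for granulocyte, 5.48 to 7.25 for myeloid, 0.24 to 2.01 for stromal and epithelial, 1.64 to 3.88 for B cell and -2.80 to 3.01 for NK cell markers. The part of these cells in the members' differences was not tested.

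**Figure D2:**
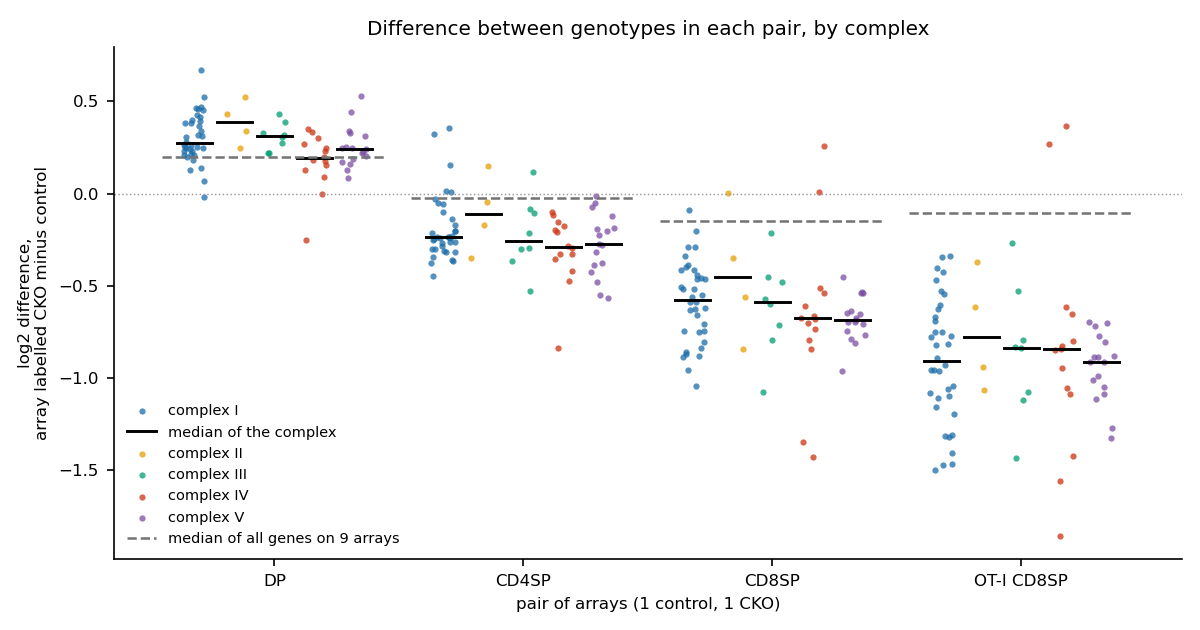
Each point is 1 of the 79 members, as the log2 difference between the array labelled CKO and the control array of a pair, with black bars for the median of each complex and dashed lines for the median of all genes on 9 arrays. The members lie near the dashed line in DP cells and below it in the other pairs, farthest in OT-I CD8SP cells, where the medians of the 5 complexes run from -0.91 to -0.78.

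Counts of single members describe the same order. As the order was read from the medians of these members, the counts are not separate evidence for it. The CD4SP difference was below the DP difference for 79 of 79 members (68.9% of all genes). The CD8SP difference was below the CD4SP difference for 74 (55.7%), and the OT-I difference below the CD8SP difference for 72 (53.7%). In the same sequence, these counts were 68, 64 and 61 under quantile normalization and 77, 75 and 76 under normexp correction. When probes found on every array set the scale, they were 77, 67 and 57. The pattern of higher in DP and lower in the other 3 pairs was shown by 68 of 79 members, against 22.0% of all genes. That count rested on the scaling: it was 36 with normexp background correction (13.0% of all genes), 48 with scaling on the probes detected on all arrays (9.07%) and 27 with quantile normalization (11.5%). Another 6 were higher in DP and CD4SP and lower in both CD8SP-type pairs (14.5% of all genes), and Cox6b2 and Ndufa4 were lower in all 4 pairs (7.55%). Over the 9 arrays, 58 members had a Pearson correlation above 0.9 with the median of the other members, against 6.73% of genes with the median of the members. This is a description over 9 arrays that share the scaling, and Cox4i2, with r = -0.58, and Cox7a2l, with r = 0.18, had the lowest values.

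The size of these differences depended on how arrays were scaled, although both CD8SP-type medians kept their sign under every scaling tried. The DP median was 0.04 with scaling on the probes detected on all arrays and 0.01 with quantile normalization, where 56 and 43 of 79 members were higher and all genes stood at -0.02 and 0.05. The CD4SP median was -0.003 with normexp correction, with 39 members higher and 40 lower, where all genes stood at 0.10. Under every scaling tried, 69 or more members were lower in the CD8SP pair and 73 or more in the OT-I pair, but the 29 that were more than 2-fold lower in OT-I cells became 12 with scaling on the probes detected on all arrays and 2 with quantile normalization. The CD8SP median ran from -0.63 to -0.29 and the OT-I median from -0.90 to -0.47 across the scalings. A list of proliferation genes also differed in the OT-I pair. Its 19 genes, among them Mki67 and Top2a, were lower on the CKO array in all 19 cases by a median of -3.44, against -1.14 in CD8SP (19 of 19), 0.00 in CD4SP and -0.19 in DP cells. The median level of that list was 5.04 and 4.79 in DP (control, CKO), 2.24 and 2.57 in CD4SP, 5.39 in TCRβ-negative, 5.60 and 4.15 in CD8SP and 5.72 and 2.26 in OT-I CD8SP cells. Of its genes 18 were well above background on all 9 arrays, and Aurkb on 4. The part of cell division in the members' differences was not tested.

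**Figure D3:**
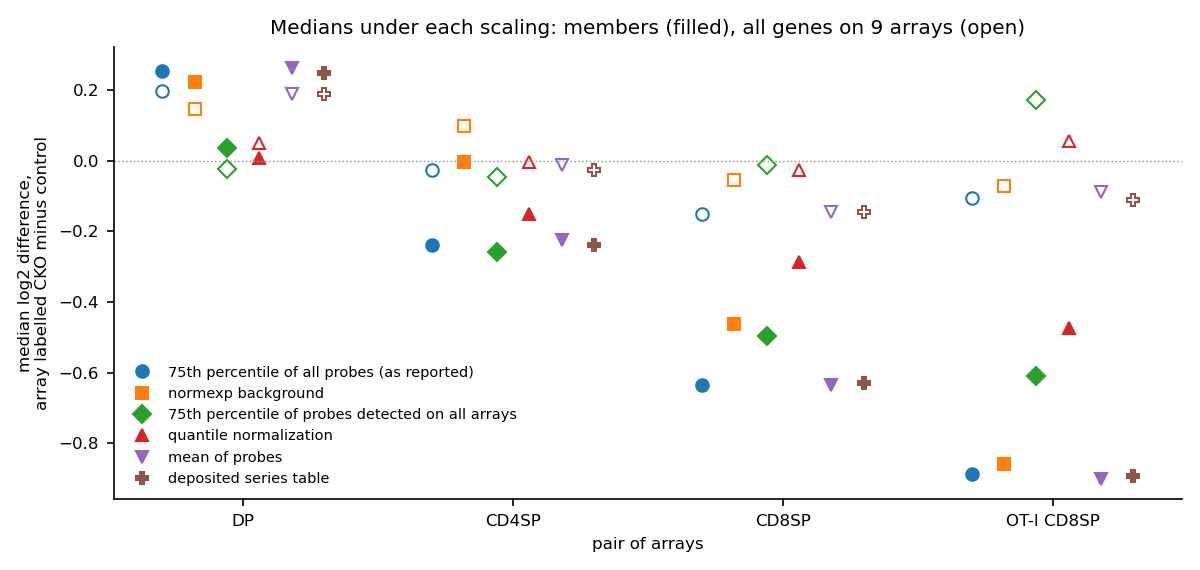
Filled symbols are the median log2 difference, array labelled CKO minus control, over the 79 members in each pair of arrays, and open symbols the median over all genes on 9 arrays, for 6 ways of scaling or summarising the arrays. The member median is below the median of all genes in the CD4SP, CD8SP and OT-I CD8SP pairs under each of them, while in DP cells both lie between -0.02 and 0.26.

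In the limma fit, whose error measures how far the genotype difference varied among the 4 pairs, 0 of 80 members passed for genotype, against 0.281% of genes (57 of 20282). An unadjusted p below 0.05 was reached by 2 members, Cox6b2 and Atp5md, against 10.9% of genes. The fitted median was -0.37 (median SE 0.26), with 76 members below 0 and 4 above, beside -0.04 over all genes. It was -0.19 without the OT-I pair, -0.58 without the DP pair and 0.01 on slide 1 alone, which holds the DP and CD4SP pairs. A further fit asked whether the genotype difference in the CD8SP-type pairs differed from that in DP and CD4SP cells. No member of 80 passed, as no gene of all passed (0.0%), and 18 members had an unadjusted p below 0.05 (15.0% of genes). The fitted median of this difference was -0.80, with 77 members below 0, beside -0.14 over all genes, and it ran from -1.04 to -0.32 across the alternatives tried.

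Complex I takes electrons from NADH. Its 36 subunits had medians of 0.27, -0.24, -0.58 and -0.91 in the DP, CD4SP, CD8SP and OT-I pairs, and all 36 were lower on the CKO array in both CD8SP-type pairs. Ndufv1, the flavoprotein subunit that binds NADH, stood at 6.30 (control) and 6.58 (CKO) in DP, 6.34 and 6.10 in CD4SP, 7.45 and 6.58 in CD8SP, 7.39 and 6.42 in OT-I CD8SP, and 6.55 in the TCRβ-negative CKO cells. Ndufs1, which carries iron-sulfur clusters, stood at 4.39 (control) and 4.57 (CKO) in DP, 4.45 and 4.40 in CD4SP, 5.21 and 4.79 in CD8SP, 5.46 and 4.68 in OT-I CD8SP, and 4.79 in the TCRβ-negative CKO cells. For both, the 2 CD8SP-type control arrays were the highest and all CKO arrays lay between 4.40 and 4.79 for Ndufs1 and between 6.10 and 6.58 for Ndufv1. The fitted genotype difference was -0.45 (SE 0.27, adjusted p = 0.565) for Ndufv1 and -0.27 (SE 0.23, adjusted p = 0.662) for Ndufs1.

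Accessory subunits of the membrane arm showed the widest spread within complex I. Ndufc1 stood at 6.32 (control) and 6.58 (CKO) in DP, 6.20 and 5.83 in CD4SP, 7.54 and 6.66 in CD8SP, 7.64 and 6.23 in OT-I CD8SP, and 6.81 in the TCRβ-negative CKO cells. The range of 1.81 over the 9 arrays ran from the CD4SP CKO array to the OT-I control array. Ndufb8, a further membrane arm subunit, had the lowest OT-I difference of complex I: it stood at 7.10 (control) and 7.41 (CKO) in DP, 6.88 and 6.61 in CD4SP, 8.22 and 7.41 in CD8SP, 8.26 and 6.76 in OT-I CD8SP, and 7.43 in the TCRβ-negative CKO cells, and its difference in the OT-I pair was -1.50, or 2.83-fold. Ndufc2 was lower by -1.48 and Ndufb6 by -1.47 in the same pair. The difference between the CD8SP-type pairs and the other pairs was -1.25 (SE 0.39, adjusted p = 0.315) for Ndufc2 and -1.13 (SE 0.41, adjusted p = 0.321) for Ndufb6. At the other end, Ndufa13, also known as GRIM-19, differed by 0.40 in DP, -0.20 in CD4SP, -0.09 in CD8SP and -0.34 in OT-I CD8SP cells, and its fitted estimate of -0.06 changed sign under 4 alternatives.

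A few complex I subunits were the exceptions in CD4SP cells. Ndufa10, an accessory subunit of the membrane arm, stood at 3.12 (control) and 3.79 (CKO) in DP, 3.25 and 3.60 in CD4SP, 4.22 and 3.71 in CD8SP, 4.07 and 3.73 in OT-I CD8SP, and 3.69 in the TCRβ-negative CKO cells. It was higher on the CKO array in DP and CD4SP cells and lower in both CD8SP-type pairs. Ndufs3, Ndufs7 and Ndufs8, core subunits of the peripheral arm, were higher in CD4SP cells by 0.16, 0.01 and 0.02. Ndufa4, grouped here by its symbol although it is now known to associate with complex IV, was lower in all pairs, by -0.02 in DP, -0.36 in CD4SP, -0.96 in CD8SP and -0.93 in OT-I CD8SP cells.

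Complex II, succinate dehydrogenase, is also an enzyme of the tricarboxylic acid cycle and is encoded in the nucleus alone. Sdha, its flavoprotein, stood at 4.71 (control) and 5.14 (CKO) in DP, 4.91 and 5.06 in CD4SP, 5.43 and 5.43 in CD8SP, 5.66 and 5.29 in OT-I CD8SP, and 5.30 in the TCRβ-negative CKO cells. The CD8SP difference was 0.00, and Sdha was lower on the CKO array in the OT-I pair alone of the 4. Sdhb, the iron-sulfur subunit, stood at 7.16 (control) and 7.68 (CKO) in DP, 7.37 and 7.32 in CD4SP, 8.32 and 7.76 in CD8SP, 8.47 and 7.41 in OT-I CD8SP, and 7.75 in the TCRβ-negative CKO cells, a difference of -1.07 in the OT-I pair. Of the membrane anchors, Sdhc differed by 0.34 in DP, -0.35 in CD4SP, -0.35 in CD8SP and -0.62 in OT-I CD8SP cells. Sdhd, the other anchor, differed by 0.25 in DP, -0.17 in CD4SP, -0.85 in CD8SP and -0.94 in OT-I CD8SP cells. The fitted genotype difference was 0.05 (SE 0.21, adjusted p = 0.93) for Sdha and -0.29 (SE 0.30, adjusted p = 0.712) for Sdhb.

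Complex III passes electrons from ubiquinol to cytochrome c. Its 8 subunits had medians of 0.31, -0.26, -0.59 and -0.84 in the DP, CD4SP, CD8SP and OT-I pairs. Uqcr11, a small accessory subunit, had the widest range, 1.93, and stood at 7.36 (control) and 7.58 (CKO) in DP, 7.15 and 6.62 in CD4SP, 8.55 and 7.47 in CD8SP, 8.40 and 6.96 in OT-I CD8SP, and 7.58 in the TCRβ-negative CKO cells. It was lower on the CKO array by -1.08 in the CD8SP pair and by -1.44 (2.71-fold) in the OT-I pair. Uqcrh, the hinge protein, had the narrowest range, 0.53, and stood at 8.73 (control) and 8.95 (CKO) in DP, 8.99 and 8.69 in CD4SP, 9.22 and 9.00 in CD8SP, 9.19 and 8.92 in OT-I CD8SP, and 8.91 in the TCRβ-negative CKO cells. The core protein Uqcrc1 was higher in DP (0.39) and CD4SP cells (0.12) and lower in CD8SP (-0.60) and OT-I CD8SP cells (-0.80). Uqcrfs1, the Rieske iron-sulfur protein, differed by 0.31 in DP, -0.11 in CD4SP, -0.45 in CD8SP and -0.84 in OT-I CD8SP cells. The fitted genotype difference was -0.71 (SE 0.31, adjusted p = 0.481) for Uqcr11 and -0.22 (SE 0.27, adjusted p = 0.751) for Uqcrc1.

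Complex IV, cytochrome c oxidase, differs from the rest in having several subunits with isoforms of their own genes. Over the 14 members on all 9 arrays the medians were 0.19, -0.29, -0.68 and -0.85, and the SD between members in the OT-I pair was 0.61, against 0.19 for complex V. Apart from Cox7a2l, the widely expressed isoforms followed the set. Cox4i1, the widely expressed form of subunit 4, stood at 8.70 (control) and 9.00 (CKO) in DP, 8.75 and 8.39 in CD4SP, 9.33 and 8.63 in CD8SP, 9.26 and 8.60 in OT-I CD8SP, and 8.76 in the TCRβ-negative CKO cells. Cox5a, a subunit on the matrix side, stood at 7.58 (control) and 7.91 (CKO) in DP, 7.71 and 7.61 in CD4SP, 9.03 and 8.36 in CD8SP, 9.08 and 7.99 in OT-I CD8SP, and 8.24 in the TCRβ-negative CKO cells. In both, the CD8SP-type control arrays were the highest. Cox5b, a further nuclear subunit, had a range of 1.78 and differed by 0.18 in DP, -0.12 in CD4SP, -0.61 in CD8SP and -1.42 in OT-I CD8SP cells. Cox6b1, Cox7b and Cox8a were lower on the CKO array by -0.80, -0.85 and -0.84 in the OT-I pair.

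**Figure D4:**
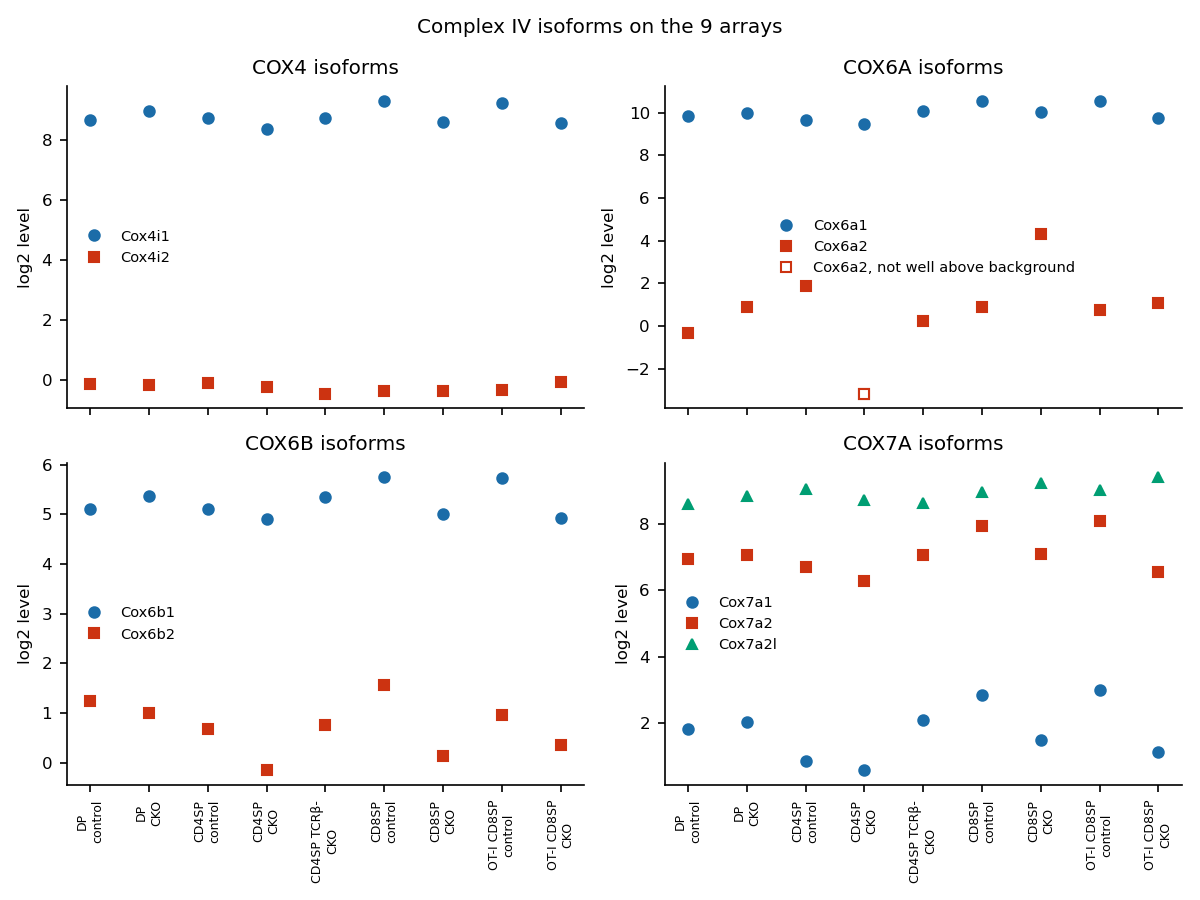
Points are log2 levels of complex IV isoforms on each of the 9 arrays, with 1 panel per subunit, and levels of different genes cannot be compared. Cox6a2 reaches 4.31 on the CD8SP CKO array and is not well above background on the CD4SP CKO array (open square), and Cox4i2 stays between -0.47 and -0.06 while Cox4i1 ranges from 8.39 to 9.33.

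Isoforms known from particular tissues differed among themselves. Cox4i2, the lung and hypoxia isoform, stood at -0.16 (control) and -0.16 (CKO) in DP, -0.10 and -0.25 in CD4SP, -0.37 and -0.36 in CD8SP, -0.33 and -0.06 in OT-I CD8SP, and -0.47 in the TCRβ-negative CKO cells. Its range of 0.41 was the smallest of the 79 members. Cox6b2, the testis isoform, stood at 1.24 (control) and 0.99 (CKO) in DP, 0.68 and -0.16 in CD4SP, 1.56 and 0.12 in CD8SP, 0.96 and 0.35 in OT-I CD8SP, and 0.75 in the TCRβ-negative CKO cells, lower on the CKO array of every pair. The fit gave it -0.79 (SE 0.25, adjusted p = 0.359), the lowest adjusted p of the members for genotype. Cox7a1, the heart and muscle isoform, followed the direction of most members and stood at 1.81 (control) and 2.04 (CKO) in DP, 0.87 and 0.57 in CD4SP, 2.83 and 1.48 in CD8SP, 2.99 and 1.13 in OT-I CD8SP, and 2.08 in the TCRβ-negative CKO cells. Among the 79 members it had the widest range, 2.42, and the lowest OT-I difference, -1.86, or 3.63-fold. Its fitted difference between the CD8SP-type and the other pairs was -1.57 (SE 0.40, adjusted p = 0.315).

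Cox6a2, the heart and muscle isoform of subunit 6A, departed most from the set. It stood at -0.34 (control) and 0.89 (CKO) in DP, 1.85 and -3.18 in CD4SP, 0.88 and 4.31 in CD8SP, 0.75 and 1.06 in OT-I CD8SP, and 0.22 in the TCRβ-negative CKO cells. On the CD4SP CKO array it was not well above background, so that the CD4SP control was at least 32.8-fold higher, set against the higher of the probe's own value and the lowest signal well above background on that array. In CD8SP cells it was 10.8-fold higher on the CKO array, which in turn stood above every other array, while in OT-I CD8SP cells the difference was 0.31. The fit gave a genotype estimate of -0.01 (SE 1.29, adjusted p = 0.997), and without the CD4SP pair it was 1.66. Of 12 skeletal and heart muscle genes, 9 were well above background on no array, Myh6 on 1, Myh7 on 6 and Tnni2, a fast-muscle troponin, on all 9. Tnni2 stood at 3.28 and 3.78 on the CD8SP control and CKO arrays, 1.50 and 2.22 on the OT-I ones, and between -1.72 and 0.09 on the others. The widely expressed partner Cox6a1 stood at 9.83 (control) and 10.01 (CKO) in DP, 9.65 and 9.48 in CD4SP, 10.54 and 10.03 in CD8SP, 10.57 and 9.75 in OT-I CD8SP, and 10.10 in the TCRβ-negative CKO cells, with the CD8SP-type control arrays highest.

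The COX7A family split by member. Cox7a2, the widely expressed form, stood at 6.93 (control) and 7.06 (CKO) in DP, 6.71 and 6.29 in CD4SP, 7.92 and 7.08 in CD8SP, 8.10 and 6.53 in OT-I CD8SP, and 7.07 in the TCRβ-negative CKO cells, and was lower by -1.56 (2.95-fold) in the OT-I pair. Cox7a2l, also called SCAF1, has been linked to supercomplexes of complexes III and IV, and whether it forms them in these cells was not measured. Its level stood at 8.59 (control) and 8.83 (CKO) in DP, 9.05 and 8.72 in CD4SP, 8.96 and 9.22 in CD8SP, 9.03 and 9.40 in OT-I CD8SP, and 8.64 in the TCRβ-negative CKO cells. Of the 79 members, Cox7a2l (by 0.37) and Cox4i2 were higher on the CKO array in the OT-I pair, and Cox7a2l was higher by 0.26 in the CD8SP pair, where Cox7a1 and Cox7a2 were lower. No fit called any of the 3: the genotype estimates were -0.82 (SE 0.38, adjusted p = 0.501) for Cox7a1, -0.67 (SE 0.31, adjusted p = 0.493) for Cox7a2 and 0.14 (SE 0.21, adjusted p = 0.802) for Cox7a2l.

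Complex V, ATP synthase, was the most uniform: all 17 members were higher on the CKO array in DP cells and lower in the other 3 pairs, with medians of 0.24, -0.28, -0.69 and -0.91. The catalytic beta subunit Atp5b stood at 8.66 (control) and 8.91 (CKO) in DP, 8.48 and 8.28 in CD4SP, 9.66 and 8.89 in CD8SP, 9.67 and 8.40 in OT-I CD8SP, and 9.00 in the TCRβ-negative CKO cells. The alpha subunit Atp5a1 differed by 0.17 in DP, -0.32 in CD4SP, -0.54 in CD8SP and -0.80 in OT-I CD8SP cells. The central stalk subunit Atp5c1 (gamma) differed by 0.16 in DP, -0.48 in CD4SP, -0.71 in CD8SP and -0.89 in OT-I CD8SP cells. Atp5g1, one of 3 genes for the rotor ring subunit c, stood at 6.97 (control) and 7.42 (CKO) in DP, 7.82 and 7.40 in CD4SP, 8.78 and 7.96 in CD8SP, 8.64 and 7.73 in OT-I CD8SP, and 7.59 in the TCRβ-negative CKO cells, and its value in the DP control was the lowest of the 9. The other subunit c genes, Atp5g2 and Atp5g3, differed by -0.91 and -1.05 in the OT-I pair, beside -0.91 for Atp5g1. Atp5k, the small subunit e that helps the enzyme form dimers, had the lowest OT-I difference of the complex, -1.33, and stood at 7.28 (control) and 7.50 (CKO) in DP, 7.33 and 6.94 in CD4SP, 8.41 and 7.62 in CD8SP, 8.40 and 7.07 in OT-I CD8SP, and 7.54 in the TCRβ-negative CKO cells. The fitted genotype difference was -0.50 (SE 0.29, adjusted p = 0.557) for Atp5b and -0.57 (SE 0.29, adjusted p = 0.521) for Atp5k. For 22 of the 83 members the array carried several probes. All 29 other probes well above background on all arrays gave the same sign as the probe used in the OT-I pair, with a median gap of 0.07 and a largest gap of 0.74. In DP cells 29 of 29 had the same sign, in CD4SP cells 25 and in CD8SP cells 28. The second probe of Ndufb11 gave 0.37 in CD4SP and 0.25 in CD8SP cells where the probe used gave -0.31 and -0.44. Another probe of Ndufv3 (0.48 against -0.03), of Sdhb (0.15 against -0.05) and of Cox7c (0.04 against -0.33) was opposite in CD4SP cells. Ndufb11, Ndufv3 and Cox7c were named after their values were seen.

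Sequence upstream of the gene start was read for members that followed the set and for those that did not. RefSeq promoters (GRCm38.p6) were matched for 68 of the 83 members. In windows from 250 bases before to 50 after the start, the letters GCGCANGCG, part of the sequence that nuclear respiratory factor 1 (NRF1) binds, were present on either strand for 20 of 68 members' genes (29.4%), against 7.04% of all 27018 genes and 16.3% of genes on all 9 arrays. The letters AAGATGGC, which YY1 binds, were present for 10 (14.7%), against 3.19% and 5.91%. The letters CCGGAAGT of ETS factors such as GABPA were present for 5 (7.35%), against 4.31% and 10.2%. For comparison, CCAAT was present for 44.1% of members' genes, against 41.1% of all and 43.6% of genes on all 9 arrays. CACGTG was present for 8.82%, against 8.09% and 12.3%, and TATAAA for 11.8%, against 15.7% and 8.78%. Every motif was searched on both strands. In the windows shown, matches of different motifs do not overlap, but NRF1 letters on opposite strands do where the run goes on with C. The 250 bases before the start are shown for Cox6a1 and Atp5k, which followed the set and hold the NRF1 letters, and for the 3 COX7A genes, whose values differed. Capitals mark the NRF1 letters, and CCAAT or its complement ATTGG.
Cox6a1, chr5:115348959-115349208, - strand: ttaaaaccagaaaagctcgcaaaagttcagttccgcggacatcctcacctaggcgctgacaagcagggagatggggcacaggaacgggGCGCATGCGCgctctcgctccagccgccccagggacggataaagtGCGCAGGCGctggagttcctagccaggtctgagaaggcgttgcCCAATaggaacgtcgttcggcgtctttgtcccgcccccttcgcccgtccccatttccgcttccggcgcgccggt
Atp5k, chr5:108434400-108434649, - strand: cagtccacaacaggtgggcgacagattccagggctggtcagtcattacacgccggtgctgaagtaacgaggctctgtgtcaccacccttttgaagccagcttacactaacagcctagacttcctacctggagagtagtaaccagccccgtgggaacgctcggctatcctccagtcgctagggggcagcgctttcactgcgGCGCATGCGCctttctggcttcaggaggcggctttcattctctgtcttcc
Cox7a2, chr9:79759854-79760103, - strand: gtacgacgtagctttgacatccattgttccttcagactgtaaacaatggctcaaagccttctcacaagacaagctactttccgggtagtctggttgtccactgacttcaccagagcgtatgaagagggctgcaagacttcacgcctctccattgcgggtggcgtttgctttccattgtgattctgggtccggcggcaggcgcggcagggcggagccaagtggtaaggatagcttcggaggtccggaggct
Cox7a1, chr7:30183921-30184170, + strand: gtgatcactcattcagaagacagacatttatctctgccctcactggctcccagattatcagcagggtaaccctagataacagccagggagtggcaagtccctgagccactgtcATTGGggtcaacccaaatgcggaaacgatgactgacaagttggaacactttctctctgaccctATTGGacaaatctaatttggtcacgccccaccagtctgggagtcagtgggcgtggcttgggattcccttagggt
Cox7a2l, chr17:83514334-83514583, - strand: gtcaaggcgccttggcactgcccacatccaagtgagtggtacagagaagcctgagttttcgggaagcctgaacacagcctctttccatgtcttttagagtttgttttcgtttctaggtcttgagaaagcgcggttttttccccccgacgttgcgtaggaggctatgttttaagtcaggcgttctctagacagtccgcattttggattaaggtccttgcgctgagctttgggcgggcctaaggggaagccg
The Cox6a1 window holds the NRF1 letters from positions -162 and -117 relative to the start, and the Atp5k window from position -50. The windows of Cox7a2 and Cox7a2l hold none of the 6 searched, although Cox7a2 was lower and Cox7a2l higher on the OT-I CKO array. Members with the NRF1 letters (20) had a median OT-I difference of -0.93 and those without (46 with a promoter and well above background on all arrays) of -0.92. In CD8SP cells the medians were -0.61 and -0.67. The ranges of both groups overlapped.

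TCRβ-negative CD4SP cells, sorted from the CKO alone, stood above CKO CD4SP cells in nearly every member and near CKO DP cells; both comparisons share the TCRβ-negative array. Against the CD4SP CKO array 76 of 79 members were higher, by a median of 0.49 (54.9% of all genes), and 2, Cox7a1 and Ndufs5, by more than 2-fold (9.07%). Against the DP CKO array 52 were higher (48.5%), by a median of 0.05. The proliferation list stood at 5.39 in these cells, 2.57 in CD4SP and 4.79 in DP CKO cells. In the fit, which takes the genotype difference of the other populations as that of this one, 0 of 80 members passed against CD4SP (1.41% of genes), with 1 at an unadjusted p below 0.05 (16.7%), and 0 against DP cells (0.0%), with 0 (1.65%). In CD4SP against DP cells, too, 0 passed (3.09%) with 0 at an unadjusted p below 0.05 (17.7%), and in OT-I against ordinary CD8SP cells 0 passed (0.237%) with 0 (6.92%). Between CKO arrays, CD8SP cells were above CD4SP cells for 77 of 79 members, by a median of 0.52 (56.3%). They were above DP cells for 51, by 0.08 (46.1%), a median that turned to -0.07 under quantile normalization. Both comparisons share the CD8SP CKO array, which lay on another slide than the CD4SP and DP CKO arrays. Slide and population cannot be told apart there.

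Other genes of the mitochondrion were described from lists of their own. The mitochondrial ribosome, which translates the subunits encoded inside the organelle, had medians over 77 genes of 0.43, -0.01, -0.50 and -0.81 in the DP, CD4SP, CD8SP and OT-I pairs, with 77 of 77 lower on the CKO array in the OT-I pair. The 18 enzymes of the tricarboxylic acid cycle and pyruvate dehydrogenase had medians of 0.25, -0.08, -0.44 and -0.67, with 18 of 18 lower in both CD8SP-type pairs. For 29 import and carrier genes the medians were 0.31, -0.15, -0.69 and -0.78. The 45 assembly factors, which build the complexes but are not part of them, differed less in OT-I cells, with medians of 0.43, -0.05, -0.19 and -0.33. For genotype, 0 members of each of these lists passed in limma, with 0 to 1 at an unadjusted p below 0.05. Between populations, Top1mt, the mitochondrial topoisomerase, rose in CD4SP against DP cells (2.07, adjusted p = 0.029 in limma) and in CD8SP against DP cells (2.59, adjusted p = 0.017), and Timm10, a chaperone of import, rose in CD8SP against DP cells (1.92, adjusted p = 0.036). The calls were lost with slide as a block, for Top1mt (adjusted p = 0.0684 in CD4SP and 0.128 in CD8SP cells) and for Timm10 (0.209), and that of Timm10 held in 8 of 13 settings. Those of Top1mt held in 11 of 13 settings in CD4SP and 12 of 13 in CD8SP cells. The CD4SP call was also lost without the CD8SP pair. No other gene of these lists passed in a population contrast. Cycs, cytochrome c, the carrier between complexes III and IV, stood at 6.09 (control) and 6.17 (CKO) in DP, 6.00 and 5.75 in CD4SP, 7.53 and 6.50 in CD8SP, 7.36 and 5.87 in OT-I CD8SP, and 6.48 in the TCRβ-negative CKO cells, with the CD8SP-type control arrays highest as for the members.

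**Figure D5:**
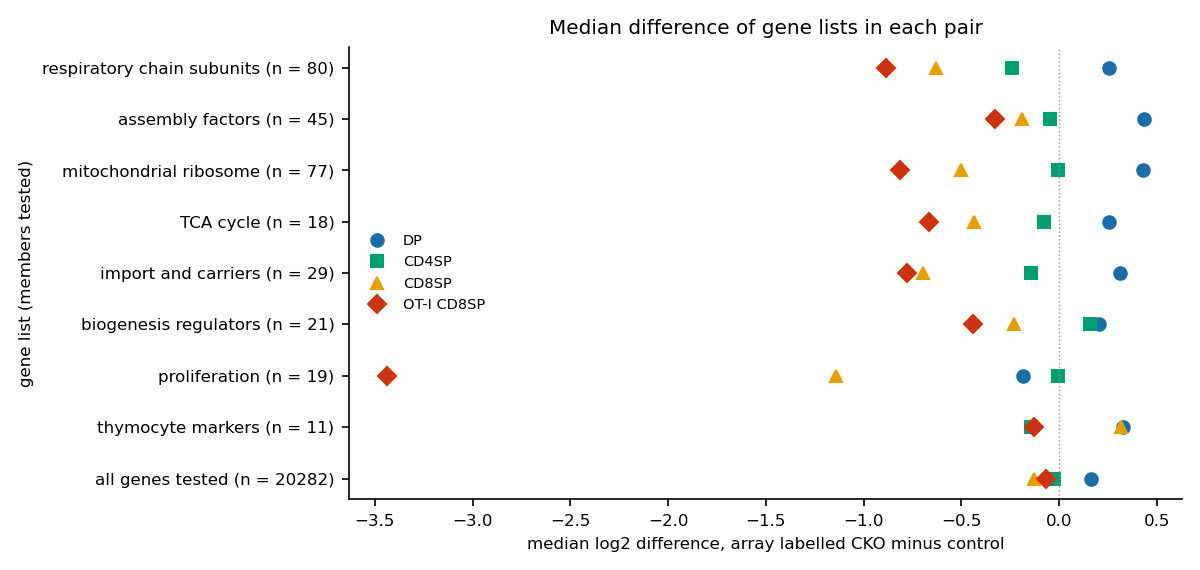
Each symbol is the median log2 difference, array labelled CKO minus control, of a gene list in 1 pair of arrays, over the members tested. The respiratory chain subunits, mitochondrial ribosome, import and TCA lists lie between -0.89 and -0.67 in OT-I CD8SP cells, the assembly factors at -0.33 and the proliferation list at -3.44, and no scaling other than the one reported is shown.

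Regulators of mitochondrial biogenesis had medians over 21 genes of 0.21, 0.16, -0.23 and -0.44. Nrf1, whose letters were searched above, stood at 3.95 (control) and 3.98 (CKO) in DP, 3.17 and 3.09 in CD4SP, 4.06 and 3.19 in CD8SP, 4.03 and 3.03 in OT-I CD8SP, and 4.11 in the TCRβ-negative CKO cells. Its CD8SP-type control arrays were above their CKO arrays and near the DP arrays. Tfam, which packages mitochondrial DNA and is a factor for its transcription, stood at 3.91 (control) and 4.11 (CKO) in DP, 4.07 and 4.16 in CD4SP, 4.68 and 4.17 in CD8SP, 4.54 and 4.09 in OT-I CD8SP, and 4.21 in the TCRβ-negative CKO cells. Ppargc1a, a coactivator known for biogenesis in muscle and brown fat, was well above background on no array. No regulator passed for genotype in limma (0 of 21, with 0 at an unadjusted p below 0.05).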

How the data were processed

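Per the file headers, the deposited scanner files were made with Agilent Feature Extraction 10.7.1.1, which gave every spot an intensity after background subtraction and spatial detrending. No scaling between arrays was applied in them. In the deposited series table that intensity is divided by the 75th percentile of the array. The labels describe biotinylated cRNA, but the files are those of a Cy3 scan.

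Spots of a probe were averaged, 144 outlier probes were left out of 55681, and log2 signals were taken minus the 75th percentile of each array. RefSeq accessions named 26715 of the 55537 probes kept, through a table of a later assembly than the array design. No position is therefore given for a probe, and the positions printed above are those of the promoter sequences. The brightest probe stood for a gene, and a gene counted as well above background where any of its probes did. Probes may also read processed pseudogenes, which the files do not separate.

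Genes detected on at least 2 arrays (20282) were fitted with limma 3.58.1 (R 4.3.3, data.table version 1.17.8) on population and genotype, two-sided, with Benjamini-Hochberg adjustment over all genes and a threshold of 0.05. Of the 20282 entries counted as genes, 12285 had a symbol, and the rest were accessions without a symbol. Percentages of all genes, in the fits and in the pairs of arrays, include such accessions. They are not shares of named genes alone. There were 3 residual degrees of freedom, and the prior added 2.91. As no label says the arrays came from separate mice, p-values measure only the spread between these arrays. The script was tested on simulated data. Pairs of arrays were compared without a test. Alternatives changed the background, scaling, filter, probe choice, slide term, variance prior and the pairs used.

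Members and lists were chosen with earlier results of these data known. Named members were those called (0), those differing one way by at least 0.5 in all pairs (0), those with the 3 highest and 3 lowest genotype estimates per complex, the 8 widest ranges, tissue isoforms with their partners and central subunits. Ndufa4, Ndufb8, Ndufs3, Ndufs5, Ndufs7, Ndufs8, Atp5g2, Atp5g3, Top1mt, Timm10, Cycs, Nrf1 and Tfam were named after their values were seen. Results of 1 member are counted with the set and not reported here.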

Additional observations from a re-analysis of the deposited data

Results flagged for a closer look

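For 6 members described here, the arrays labelled CKO differed from their controls in one direction in both DP and CD4SP cells and in the opposite direction in both CD8SP-type pairs. Ndufa10 was higher by 0.67 and 0.35 and then lower by -0.51 and -0.35 in the CD8SP and OT-I pairs, a fitted difference of -0.94 between the CD8SP-type and the other pairs. The same difference was -0.87 for Ndufs3, -0.74 for Ndufs7 and -1.02 for Ndufs8, all of complex I, and -0.95 for the complex III core protein Uqcrc1. The sign of these fitted differences follows from how the members were picked. Over all 80 members tested the median was -0.80, with 77 below 0. For Ndufs7 and Ndufs8 the CD4SP difference was 0.01 and 0.02, smaller than the shifts that other scalings gave. Cox4i2 went the other way, from -0.001 in DP and -0.16 in CD4SP cells to 0.01 and 0.27, a difference of 0.22. Its DP and CD8SP values lay near 0, so their signs say little, and the share of all genes with its direction was not counted. None of the 6 passed in limma, with adjusted p from 0.319 for Uqcrc1 to 0.782 for Cox4i2. The direction that Ndufa10 had was shown by 6 of 79 members, Cox4i2 not among them, and by 14.5% of genes on all 9 arrays.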

How the results depend on the processing

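No member passed the limma threshold in any contrast under any of the 14 alternatives, and the lowest adjusted p that a member reached was 0.0501, in CD8SP against CD4SP cells. At an unadjusted p below 0.05, 0 to 36 members passed for genotype and 1 to 63 for the difference between the CD8SP-type and the other pairs. The count of all genes called for genotype did: from 57 it went to 32 with scaling on the probes detected on all arrays, 29 with quantile normalization, 96 without a detection filter, 20 among genes detected on all 9 arrays, 24 without the OT-I pair and 131 on slide 1 alone. It was 0 with slide as a block and 0 without the DP, the CD4SP or the CD8SP pair. The CD8SP pair alone lies on both slides, so the slide term takes up its genotype difference. The fits with slide as a block and without the CD8SP pair thus gave the same genotype values (member median -0.29, 74 members below 0). Each fit that left out a pair had fewer arrays, and the cause of the remaining changes was not tested.

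With quantile normalization the fitted member medians of CD8SP minus DP, CD8SP minus CD4SP and the genotype difference in CD8SP-type minus other pairs became 0.0899, 0.31 and -0.32. Within pairs it gave 0.0074 in DP, -0.29 in CD8SP and -0.47 in OT-I CD8SP cells, and it turned CD4SP minus DP controls to -0.17 and CD8SP minus DP CKO arrays to -0.0694. Scaling on the probes detected on all arrays gave 0.036 in the DP pair and turned OT-I minus CD8SP controls to -0.0745. Normexp correction gave -0.0029 in the CD4SP pair and turned CD4SP minus DP controls to -0.16. With slide as a block, the fitted OT-I minus CD8SP median turned to 0.0434. On slide 1 alone, with 2 pairs, the fitted genotype median turned to 0.0082. The other alternatives left the signs of these medians as reported.

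Of the genotype estimates of 40 named members, none of which was called, 32 values changed sign. On slide 1 alone they were 0.0211 for Atp5b, 0.13 for Atp5d, 0.0096 for Atp5g1, 0.068 for Atp5h, -0.078 for Cox4i2, 0.12 for Cox5a, 0.0332 for Cox5b, 0.0001 for Cox6a1, 0.0301 for Cox6b1, -0.0409 for Cox7a2l, 0.035 for Cox7b, 0.0005 for Cox8a, 0.0985 for Ndufa13, 0.0654 for Ndufs1, 0.0224 for Ndufv1, 0.24 for Sdhb, 0.0386 for Sdhd, 0.0108 for Uqcr10, 0.25 for Uqcrc1, 0.12 for Uqcrc2 and 0.0993 for Uqcrfs1. With normexp correction they were -0.0039 for Cox4i2, 0.36 for Cox6a2 and 0.0576 for Ndufa13. With quantile normalization the value was 0.0618 for Ndufa13, and with scaling on the probes detected on all arrays 0.0301 for Cox6a2. Without the DP pair they were -0.17 for Ndufa10 and -0.0737 for Sdha, and without the CD4SP pair 1.66 for Cox6a2 and -0.0616 for Ndufa10. Without the OT-I pair they were -0.0491 for Cox4i2 and 0.0354 for Ndufa13.

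No paired analysis was possible because each group has 1 array, as far as pairing by replicate number goes. The control and CKO arrays of a population are paired in every reported fit, where population is a term. A contrast that needs a left-out population, or the effect in CD8SP-type cells on slide 1, has no value under that alternative. The number of arrays limits the precision: 3 residual degrees of freedom in the additive fit and 2 in the fit with the CD8SP-type term. Cox6a2 on 1 array, and Cox7b2, Cox8b and Cox8c on all, lay too near background for a level.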
